A study of Mus musculus with 6 samples.

Results

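The genes described here are the p53 pathway and the apoptosis machinery in mouse brain: 37 genes of known function out of 31276 gene symbols in the count table. They were chosen by symbol, and all 37 were found. Of these, 35 passed the filter on low counts, which left 16592 genes for testing, and the exceptions were the death receptor gene Fas and the stress cytokine gene Gdf15. The genes were ordered by role into p53 with its inhibitors (3 genes), p53 targets of arrest, repair and metabolism (18), p53 target death receptors (3), the BCL2 family (10) and caspases with their activator (3). Polyadenylated RNA was sequenced from brains of C57BL/6 mice at postnatal day 14. The 3 KO samples are labelled as a PRMT5 knockout driven by Olig2-Cre, and the 3 WT samples as wild-type. The labels do not say which alleles the WT mice carry, whether they carry Cre, or whether each sample is 1 animal. Olig2, whose regulatory sequences drive the Cre, is expressed in the oligodendrocyte lineage and also in some neuronal progenitors, and a brain sample also holds many cells outside these lineages.

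The transcription factor p53 is held at low activity by MDM2, a ubiquitin ligase that targets it for degradation, and by the related inhibitor MDM4. Its activity is set largely through the stability of the protein, which read counts do not measure, and shows at the RNA level through its target genes. Targets such as Cdkn1a stop the cell cycle, whereas Bax, Bbc3 and Pmaip1 promote release of cytochrome c from mitochondria, after which APAF1 activates caspase 9. The anti-apoptotic proteins BCL2, BCL-XL and MCL1 oppose that release, and death receptors act through caspase 8. In mouse neural progenitors, PRMT5 is known to be needed for correct splicing of Mdm4. Counts summed over the exons of a gene hold no information on that splicing.

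Total counts ran from 15089140 to 16365802 in the KO libraries and from 15219817 to 16872925 in the WT libraries. Prmt5 stood at 68.2, 68.4 and 81.6 CPM (read counts scaled to library size with TMM factors) in KO replicates 1 to 3, against 90.8, 90.4 and 91.8 CPM in WT replicates 1 to 3. All KO libraries were below all WT libraries, and the edgeR adjusted p was 0.232, or 0.0379 with the replicate number as a block. The labels give these numbers no meaning, and they were taken as pairs from the same counts. Values with the block, here and below, therefore do not rest on a known design. All 8 oligodendrocyte markers were lower in KO (median log2 fold change -2.65), each with an edgeR adjusted p under 0.05. All 7 meningeal fibroblast markers were higher (median 0.91), 5 of them with an edgeR adjusted p under 0.05. Gabra6, a gene of cerebellar granule cells, was above 5 CPM in KO replicates 1 and 3 and WT replicate 1 and at 0 in the others, and Xist was above 5 CPM in KO replicates 1 and 2 and WT replicate 2. The labels do not state that replicates are different animals. Xist stood at 634, 603.3 and 0.2541 CPM in KO replicates 1 to 3. In WT replicates 1 to 3 it stood at 0.2499, 509.1 and 0.2407 CPM. Each group thus mixed libraries with high and near-absent Xist, so its libraries were not all from the same animal. Whether libraries of a group with similar Xist came from different animals was not tested. The p-values measure only the spread between these samples, which may be technical in part.

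Few genes of the pathway were called different between KO and WT brain, as over all genes, and a gene not called may still differ. Called here means a Benjamini-Hochberg adjusted p under 0.05 over all genes in the quasi-likelihood test of edgeR. Of the 35 tested members 1 was called, Ephx1, and it was higher in KO. Over all 16592 genes 1.20% were called, with 0.241% called higher and 0.958% called lower in KO. With the replicate number as a block 3 members were called, Ephx1, Cdkn1a and Eda2r, all higher in KO, against 3.41% of all genes in either direction, 1.03% higher and 2.38% lower. DESeq2 called the same 3 members, against 1.89% of all genes in either direction. Of the 314 genes that it called, 74 were higher in KO. The median log2 fold change (KO over WT) over the tested members was 0.03, against 0.01 over all genes tested, and 21 of the 35 members had positive values, 60.0% against 52.3% of all genes. In RNA of mixed brain tissue a change in the number of cells of a type and a change in RNA per cell cannot be told apart.

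Most intervals were narrow enough to bound the difference. The 95% confidence interval of the log2 fold change lay within -1 and 1, which is less than a 2-fold change either way, for 31 of the 35 tested members (88.6%), against 82.3% of all genes. For 19 (54.3%) it lay within -0.5 and 0.5, against 50.8% of all genes. The 4 whose interval reached further were Gtse1, Tnfrsf10b, Eda2r and Pmaip1, and each averaged under 3 CPM in both groups. Every KO library was above every WT library for 6 members (17.1%), against 8.01% of all genes, and these were Cdkn1a, Ephx1, Gtse1, Perp, Eda2r and Apaf1. Every KO library was below every WT library for 0 members, against 7.99% of all genes. At an unadjusted p under 0.05 there were 5 members, all higher in KO (Ephx1, Cdkn1a, Eda2r, Gtse1 and Perp). That is 14.3%, against 9.67% of all genes in either direction, 4.40% higher and 5.27% lower in KO.

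**Figure D1:**
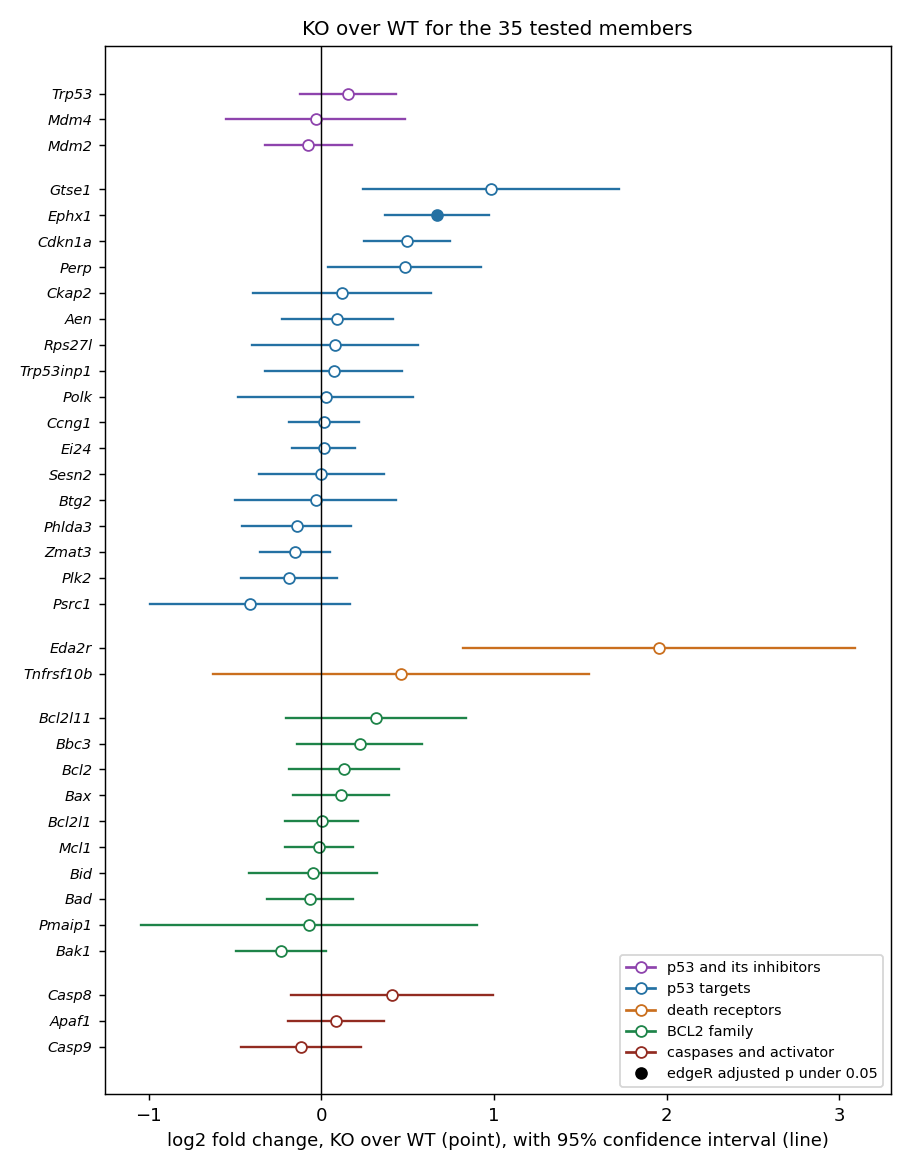
Log2 fold change (KO over WT, horizontal axis) of the 35 tested members, grouped by role, with the 95% confidence interval as a line; the filled point has an edgeR adjusted p under 0.05. Points of the BCL2 family lie between -0.24 and 0.32, while Eda2r (1.95), Gtse1 (0.98), Ephx1 (0.67), Cdkn1a (0.50) and Perp (0.48) lie to the right with intervals above 0.

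The gene for p53 and the genes for its inhibitors were not called in any fit. Trp53 stood at 21.6, 25.1 and 20.5 CPM in KO replicates 1 to 3, against 19.2, 20.8 and 20.2 CPM in WT replicates 1 to 3. Its groups overlapped, and the log2 fold change was 0.16 (SE 0.126, 95% interval -0.12 to 0.43). Mdm2, both an inhibitor of p53 and a target that p53 induces, stood at 32.8, 36.4 and 30.3 CPM in KO, against 32.4, 35.2 and 37.4 CPM in WT. It showed overlapping groups and a value of -0.08 (SE 0.114, 95% interval -0.33 to 0.18). Mdm4 stood at 24.0, 24.4 and 11.8 CPM in KO, against 19.7, 23.0 and 18.9 CPM in WT. KO replicate 3 was the lowest of all 6 libraries for Mdm4, and the other KO libraries were above every WT library. The fitted value of Mdm4 was therefore near 0 (log2 fold change -0.03, SE 0.235) with all libraries and 0.24 without KO replicate 3. The edgeR adjusted p of Trp53, Mdm2 and Mdm4 were 0.731, 0.865 and 0.974.

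Ephx1 encodes microsomal epoxide hydrolase, an enzyme that detoxifies reactive epoxides, and lies on mm10 at chr1:180976210-181020904. It stood at 24.9, 24.0 and 28.6 CPM in KO replicates 1 to 3, against 16.6, 14.1 and 17.9 CPM in WT replicates 1 to 3. All KO libraries were above all WT libraries, and each KO library was above the WT library of the same number. The level averaged 25.8 ± 2.43 CPM in KO and 16.2 ± 1.93 CPM in WT (SD, n = 3 each), 1.59-fold higher in KO. On the log2 scale the difference was 0.67 (SE 0.136), with an edgeR adjusted p of 0.0444. With the replicate block its edgeR adjusted p was 0.00236. The call was lost when any 1 of the 6 libraries was left out, with edgeR adjusted p from 0.0537 to 0.229, while the log2 fold change stayed between 0.58 and 0.74. It was also lost with a term for cerebellar transcripts (0.63, edgeR adjusted p = 0.0666) and with length-adjusted offsets (0.57, edgeR adjusted p = 0.0719). The value was 0.68 among the libraries with Gabra6 above 5 CPM (2 KO and 1 WT) and 0.58 among the rest (1 KO and 2 WT). Each of these subsets has 1 library in an arm, so the values are given with no test.

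Cdkn1a encodes p21, an inhibitor of cyclin-dependent kinases and the best known p53 target of cell cycle arrest, and lies at chr17:29090976-29100727. It stood at 33.2, 32.1 and 30.0 CPM in KO, against 23.9, 21.6 and 22.1 CPM in WT. The lowest KO library was above the highest WT library, and the spread within each group was small. The level averaged 31.8 ± 1.597 CPM in KO and 22.5 ± 1.23 CPM in WT (SD, n = 3 each), 1.41-fold higher in KO (log2 fold change 0.50, SE 0.112). This did not pass the adjustment in edgeR (adjusted p = 0.0777), and passed with the replicate block (0.0153) and in DESeq2 (0.0260). Where Gabra6 was above 5 CPM the value was 0.40, and where it was at 0 the value was 0.55, again with 1 library in an arm and no test. Without each library in turn it ran from 0.46 to 0.54.

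Among the other p53 targets, Gtse1, a microtubule-binding protein gene that is also active in dividing cells, stood at 2.43, 1.89 and 2.92 CPM in KO, against 0.999, 1.08 and 1.56 CPM in WT. Its groups did not overlap, but the counts were low, and the log2 fold change of 0.98 (SE 0.336) had an edgeR adjusted p of 0.328. Psrc1 and Ckap2, which act at the mitotic spindle, had values of -0.41 (SE 0.262) and 0.12 (SE 0.234). The 5 markers of dividing cells summed to between 35.8 and 58.1 CPM in KO and between 25.2 and 41.0 CPM in WT, all 5 had positive log2 fold changes, 0 were called by edgeR or DESeq2 and 1 had an unadjusted p under 0.05. Their part in the value of Gtse1 was not tested. Ccng1, a cyclin gene induced by p53, stood at 71.5 ± 4.77 CPM in KO and 70.8 ± 4.16 CPM in WT (SD, n = 3 each), with a log2 fold change of 0.01 (95% interval -0.19 to 0.22). Btg2, an antiproliferative gene, had a value of -0.03, and Plk2, a kinase gene also induced by neuronal activity, -0.19 (95% interval -0.46 to 0.09).

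Perp, a membrane protein gene linked to both adhesion and apoptosis, had an unadjusted p of 0.0353. It stood at 5.53, 4.91 and 5.21 CPM in KO, against 3.37, 3.92 and 3.91 CPM in WT, with a log2 fold change of 0.48 (SE 0.201) and an edgeR adjusted p of 0.458. Zmat3, a zinc finger RNA-binding protein gene, had a value of -0.15 (95% interval -0.36 to 0.05) and Phlda3, an inhibitor of AKT, of -0.14 (-0.46 to 0.17). Aen, an apoptosis-enhancing nuclease gene, had 0.09, Trp53inp1, a p53 regulator, 0.07, and Sesn2, an inhibitor of mTORC1 signalling, 0.00. Polk, a translesion DNA polymerase gene, had 0.03, Ei24, an endoplasmic reticulum membrane protein gene, 0.01, and Rps27l, a ribosomal protein gene, 0.08; reads of Rps27l may be shared with its close relative Rps27. Gdf15 had counts in a single library, KO replicate 3 (0.254 CPM), and 0 in the other 5. Of the 17 tested targets 1 was called higher in KO, against 0.241% of all genes, and 0 lower, against 0.958%. With the replicate block and in DESeq2, 2 of the 17 were called, both higher in KO. Over all genes 3.41% and 1.89% were called in either direction. The block called 1.03% of all genes higher, and DESeq2 called 74 of 16592 genes higher. An unadjusted p under 0.05 was found for 4 targets, all higher in KO, against 9.67% of all genes in either direction and 4.40% higher. The median log2 fold change of the targets was 0.03, against 0.01 over all genes.

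**Figure D2:**
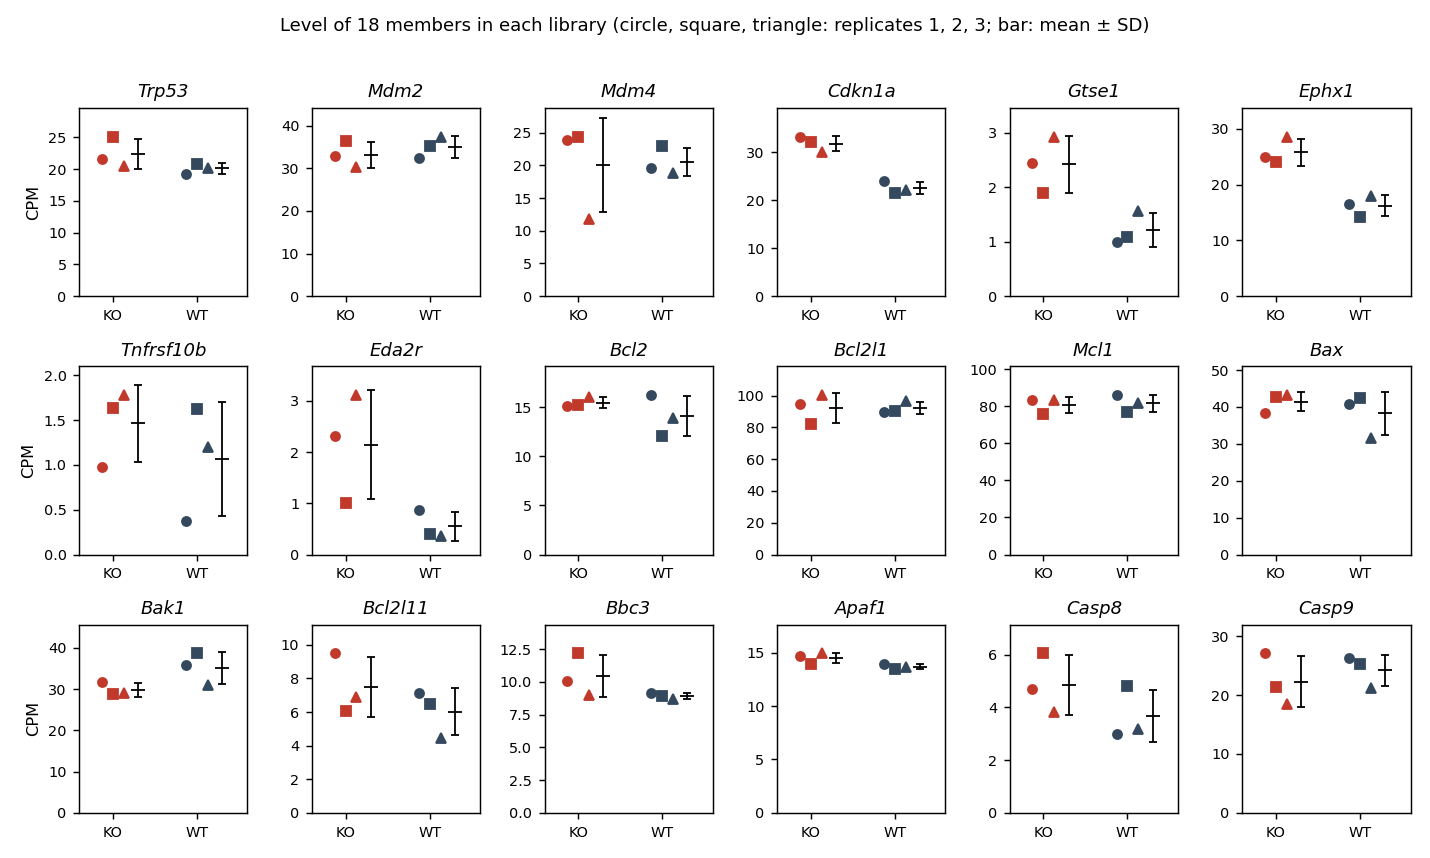
Level in CPM (vertical axis, starting at 0) of 18 members in each KO library (left) and WT library (right), with replicates 1, 2 and 3 as circle, square and triangle and the mean ± SD as a bar. Cdkn1a, Ephx1, Gtse1, Eda2r and Apaf1 have all KO libraries above all WT libraries, and the low KO point of Mdm4 is replicate 3 at 11.8 CPM.

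Among the p53 target death receptors, Eda2r had the largest value of any member and also a low level. Eda2r encodes the receptor for ectodysplasin A2, a member of the tumour necrosis factor receptor family, and lies at chrX:97333840-97377216. It stood at 2.31, 1.01 and 3.11 CPM in KO, against 0.874, 0.406 and 0.361 CPM in WT, from 38, 16 and 49 counts in KO and 14, 6 and 6 counts in WT. The groups did not overlap, but KO replicate 2 was close to WT replicate 1. The log2 fold change was 1.95 (SE 0.515, 95% interval 0.82 to 3.09), with an edgeR adjusted p of 0.155. The replicate block gave an adjusted p of 0.0216, and DESeq2 gave 0.0449. Libraries with cerebellar transcripts had the higher Eda2r level within each group, and the value was 1.52 with the cerebellum term, 1.62 where Gabra6 was above 5 CPM and 1.38 where it was at 0 (1 library in an arm in each). With the Xist term the value of this X-linked gene was 2.21, and without each library in turn it ran from 1.59 to 2.46. Tnfrsf10b, the mouse TRAIL receptor, stood at 0.973, 1.64 and 1.78 CPM in KO, against 0.375, 1.62 and 1.20 CPM in WT, with overlapping groups (log2 fold change 0.46, SE 0.494). Fas stood at 0.487, 1.26 and 0.889 CPM in KO, against 0.375, 0.541 and 0.421 CPM in WT. These Fas levels rested on 6 to 20 counts per library, the groups overlapped, and the gene was not tested.

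**Figure D3:**
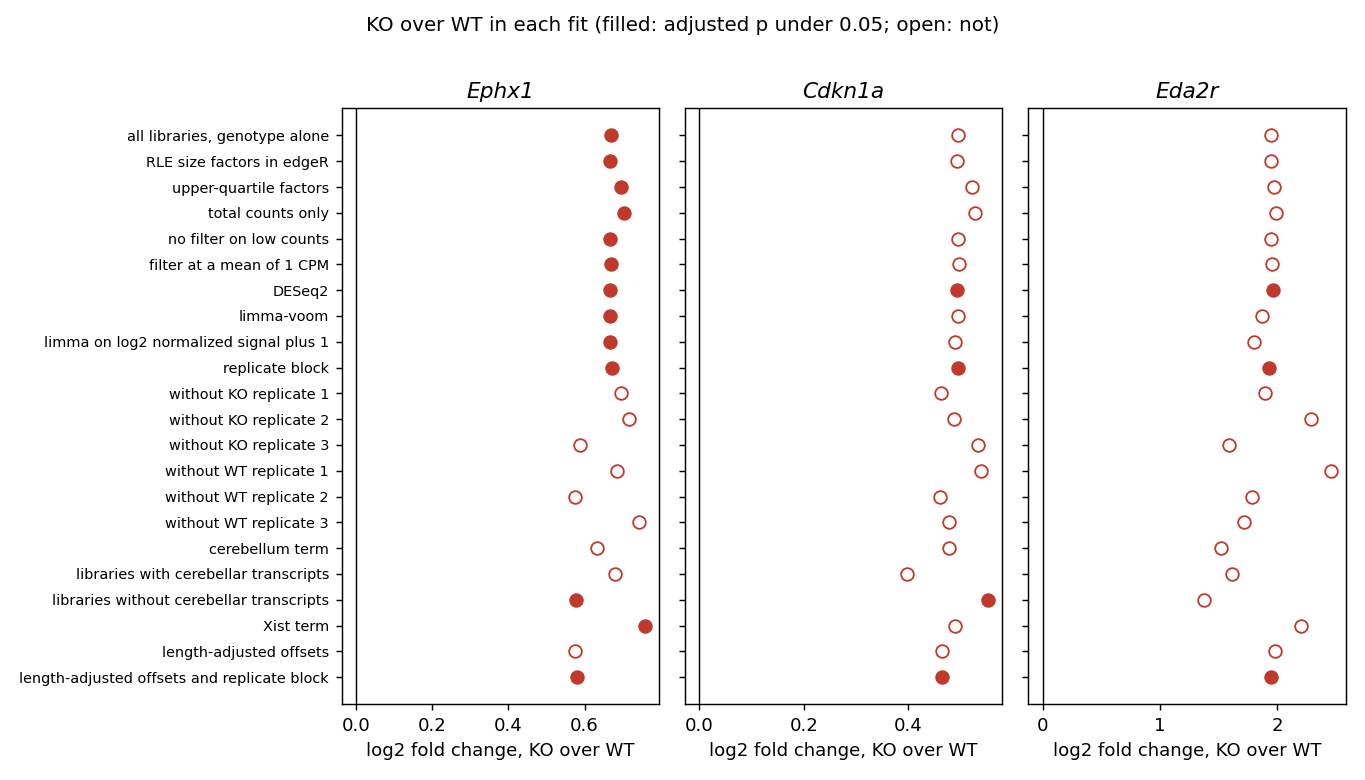
Log2 fold change (KO over WT, horizontal axis) of Ephx1, Cdkn1a and Eda2r in each fit, listed down the page. Filled points have an adjusted p under 0.05. The fits to libraries with or without cerebellar transcripts have 1 library in an arm, assumed to vary like the others. The fill of their points is not used as a test. All points lie above 0, and for Ephx1 the points without 1 library are open, although they lie between 0.58 and 0.74.

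The markers of other cell types are given here for these calls. Summed over 8 oligodendrocyte markers, the level ran from 906.3 to 1911 CPM in KO and from 7474 to 10140 CPM in WT. The 4 precursor markers summed to between 125.6 and 149.5 CPM in KO and between 190.7 and 209.7 CPM in WT. All 4 had negative log2 fold changes. Only Pdgfra was called lower, and 3 of the 4 were called lower with the replicate block. Summed over 7 meningeal fibroblast markers, the level ran from 360.6 to 582.6 CPM in KO and from 235.8 to 278.3 CPM in WT, so these groups did not overlap either. The 4 endothelial, 4 microglial, 4 astrocyte and 4 neuron markers had sums that overlapped between KO and WT, and 0 of those 16 were called by edgeR or DESeq2 or had an unadjusted p under 0.05. Choroid plexus markers summed to between 518.8 and 934.1 CPM in KO and between 397.5 and 571.2 CPM in WT, and cerebellar granule cell markers to between 106.7 and 578.5 CPM in KO and between 78.5 and 480.5 CPM in WT. With the replicate block all 7 meningeal markers, Ttr of the choroid plexus (edgeR adjusted p = 0.0144) and Zic1 (edgeR adjusted p = 0.000724) were called higher in KO. Zic1 was the only 1 of the 4 cerebellar granule cell markers called with the block. In replicate 2, with Gabra6 at 0 in both groups, Zic1 stood at 59.0 CPM in KO and 34.3 CPM in WT. There Neurod1 stood at 14.2 CPM in KO and 18.7 CPM in WT, and Cbln1 at 33.5 and 33.7 CPM. No defining marker of oligodendrocytes or meningeal fibroblasts was at 0 in any library. The part of these cell types in the values of Ephx1, Cdkn1a and Eda2r was not tested.

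The BCL2 family sets the threshold for release of cytochrome c, and 0 of its 10 members were called by edgeR, by edgeR with the replicate block or by DESeq2, and 0 had an unadjusted p under 0.05. Over all genes these shares were 1.20%, 3.41%, 1.89% and 9.67%, so 0 of 10 is near the background. The median log2 fold change was -0.01, with values from -0.24 to 0.32. Among the anti-apoptotic genes, Bcl2l1, which encodes BCL-XL, stood at 94.9, 82.0 and 100.4 CPM in KO, against 89.8, 90.4 and 96.9 CPM in WT. Its value was 0.00 (95% interval -0.21 to 0.21). Mcl1 stood at 83.2, 75.9 and 83.7 CPM in KO, against 86.1, 76.8 and 82.0 CPM in WT, with a value of -0.01 (95% interval -0.21 to 0.18). Bcl2 stood at 15.1, 15.2 and 16.1 CPM in KO, against 16.2, 12.1 and 13.96 CPM in WT, with a value of 0.13 (95% interval -0.19 to 0.45). The groups overlapped for all 3 genes.

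Bax and Bak1 form the pores of the outer mitochondrial membrane. Bax stood at 38.4, 42.7 and 43.2 CPM in KO, against 40.8, 42.5 and 31.6 CPM in WT, with a log2 fold change of 0.11 (95% interval -0.16 to 0.39). WT replicate 3 was the lowest library for Bax, and without it the value was -0.01. Bak1 stood at 31.7, 28.8 and 29.0 CPM in KO, against 35.9, 38.7 and 30.9 CPM in WT, and had the lowest value of the family (-0.24, SE 0.118, edgeR adjusted p = 0.554). Its groups overlapped, since WT replicate 3 was below KO replicate 1.

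BH3-only proteins relay death signals to the other members of the family. Bbc3, which encodes PUMA and is a direct p53 target, stood at 10.03, 12.2 and 9.02 CPM in KO, against 9.12, 8.92 and 8.72 CPM in WT. KO replicate 2 was the highest library and KO replicate 3 lay within the WT range, for a log2 fold change of 0.22 (SE 0.164, 95% interval -0.14 to 0.58). Bcl2l11, which encodes BIM, stood at 9.49, 6.05 and 6.92 CPM in KO, against 7.12, 6.49 and 4.45 CPM in WT, with overlapping groups and a value of 0.32 (SE 0.237). Pmaip1, which encodes NOXA, stood at 1.46 ± 0.608 CPM in KO and 1.55 ± 0.768 CPM in WT (SD, n = 3 each), and its interval of -1.05 to 0.90 was the widest of the family. Bid, which caspase 8 cleaves, had a value of -0.05, and Bad, which is regulated by growth factor signalling, of -0.07. On the opposite strand Bak1 overlaps Ggnbp1, Bid overlaps Bcl2l13, Bad overlaps Gpr137, and Casp9 overlaps Cela2a and Ctrc. The strand setting of the counting is not given in the sources used here, so reads there may be shared.

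For the caspases and their activator 0 of 3 genes were called by edgeR, by edgeR with the replicate block or by DESeq2, and 0 had an unadjusted p under 0.05, which for 3 genes is near the background of 1.20%, 3.41%, 1.89% and 9.67% of all genes. Apaf1, the scaffold of the apoptosome, stood at 14.7, 13.99 and 14.9 CPM in KO, against 13.9, 13.4 and 13.7 CPM in WT. All KO libraries were above all WT libraries, yet by little, with a log2 fold change of 0.09 (SE 0.126, 95% interval -0.19 to 0.36). Casp9, the initiator caspase of the mitochondrial pathway, stood at 27.1, 21.4 and 18.4 CPM in KO, against 26.2, 25.2 and 21.2 CPM in WT, with overlapping groups and a value of -0.12 (SE 0.158). Casp8, the initiator caspase of death receptors, stood at 4.68, 6.05 and 3.81 CPM in KO, against 2.998, 4.80 and 3.19 CPM in WT. In each same-numbered pair the KO library was above the WT library, but the groups overlapped (0.41, SE 0.265, edgeR adjusted p = 0.657).

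Genes of the same pathways outside the 37 were also tested. Of 78 such genes on 6 lists, 67 were tested and 0 were called by edgeR or DESeq2, against 1.20% and 1.89% of all genes. With the replicate block 1 other p53 target and 1 upstream regulator were called, both lower in KO. Over all genes 3.41% were called with the block in either direction and 2.38% lower, so these calls are near the background. An unadjusted p under 0.05 was found for 4 of the 67, against 9.67% of all genes. Among 19 other tested p53 targets the median log2 fold change was 0.04, with 10 positive and 9 negative values. Sulf2, a heparan sulfate endosulfatase gene, stood at 184.6, 195.6 and 174.1 CPM in KO, against 220.8, 247.2 and 228.9 CPM in WT, below in every KO library. Its value was -0.33 (SE 0.0918, edgeR adjusted p = 0.191), and the replicate block gave an adjusted p of 0.0247. Among 14 tested upstream kinases and regulators of p53 (median -0.04), Hipk2, a kinase that phosphorylates p53, was called lower with the replicate block alone (-0.94, edgeR adjusted p = 0.0300). It stood at 11.4, 6.49 and 2.54 CPM in KO, against 15.4, 9.46 and 11.3 CPM in WT, and KO replicate 3 was far below the rest; without it the value was -0.42, and with all libraries and no block -0.82 (edgeR adjusted p = 0.546). Trp73, a p53 relative, had the smallest p of that list, with a value of 0.63 (SE 0.293) and all KO libraries above all WT libraries.

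The lists of other caspases, other BCL2 family genes, inhibitors of apoptosis and death receptor signalling had 0 calls in edgeR, in edgeR with the replicate block and in DESeq2. Over all genes these shares were 1.20%, 3.41% and 1.89%, so 0 calls on lists this short is near the background. An unadjusted p under 0.05 was found for 9.67% of all genes. Of 6 other tested caspases 0 had an unadjusted p under 0.05, with a median of 0.21; Casp12 had the smallest p (0.79, SE 0.583). Of 9 other tested BCL2 family genes 0 had an unadjusted p under 0.05, with a median of -0.07, and Bmf, a BH3-only gene, had the smallest p (-0.58, SE 0.295). Of 12 inhibitors of apoptosis and mitochondrial factors 1 had an unadjusted p under 0.05, with a median of 0.04. Birc5, which encodes survivin and is also a mitotic gene, had the smallest p (0.53, SE 0.228). Of 7 tested genes of death receptor signalling 1 had an unadjusted p under 0.05, with a median of 0.01. Tnfrsf21, death receptor 6, which is also expressed in neurons, stood at 82.6, 79.8 and 69.2 CPM in KO, against 92.8, 88.8 and 93.5 CPM in WT. All its KO libraries were below its WT libraries (-0.25, SE 0.0930, edgeR adjusted p = 0.396).

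The members differed widely in level among themselves. Levels of different genes are compared here only as CPM per kb of exon, with exon lengths from GENCODE M21 taken over all annotated transcripts, which understates genes with long rare exons. Plk2 was the most abundant on this scale, at 30.6 ± 4.07 CPM per kb in KO and 34.8 ± 4.63 CPM per kb in WT (SD, n = 3 each). Ei24, Bax, Mcl1, Ccng1 and Bcl2l1 followed between 20.2 and 26.3 CPM per kb in KO and between 20.1 and 24.5 CPM per kb in WT. Mcl1 and Ccng1, next to each other in that order, differed by more than their spread, at 23.7 ± 1.28 and 20.4 ± 1.36 CPM per kb in KO and 23.9 ± 1.35 and 20.2 ± 1.183 CPM per kb in WT (SD, n = 3 each). Trp53 stood at 5.53 ± 0.595 CPM per kb in KO and 4.97 ± 0.197 CPM per kb in WT (SD, n = 3 each). Of the genes with counts in WT libraries, the lowest were the death receptors. Eda2r stood at 0.364 ± 0.180 CPM per kb in KO and 0.0929 ± 0.0483 CPM per kb in WT, and Tnfrsf10b at 0.268 ± 0.0790 CPM per kb in KO and 0.196 ± 0.116 CPM per kb in WT (SD, n = 3 each). Ephx1 stood at 13.2 CPM per kb in KO and 8.32 CPM per kb in WT, above Mdm2 and Cdkn1a in both groups.

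**Figure D4:**
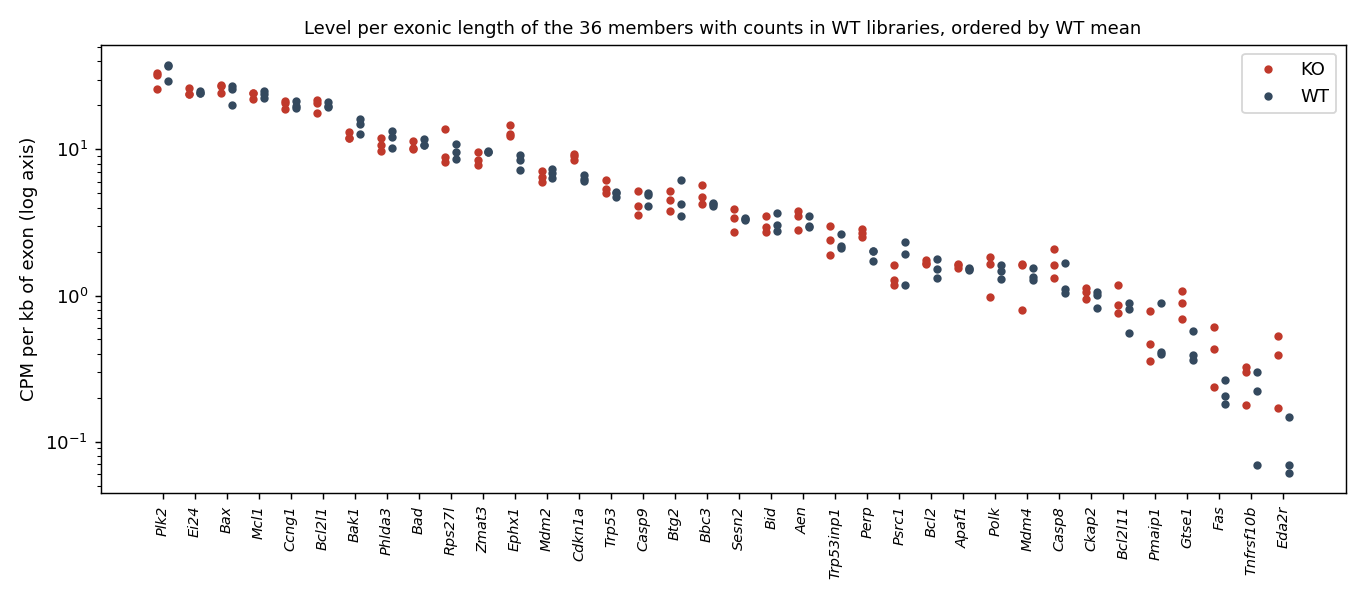
CPM per kb of exon on a log axis (vertical) for 36 members with counts in WT libraries, ordered by WT mean, with each KO library in red and each WT library in dark blue. Plk2 is highest (30.6 in KO and 34.8 in WT on average) and Eda2r lowest in WT (0.0929), and for most genes the KO and WT points overlap.

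The promoters of the members that passed a test are printed to show whether letters that p53 can bind lie near their start sites. RefSeq windows on GRCm38.p6, from 250 bases before to 50 bases after a start site, were found for 32 of the 37 members. They were searched for the p53 consensus decamer, 1 unit of the paired p53 response element, which is its own reverse complement and so was searched on both strands at once. Each window is printed 5′ to 3′ along the gene, and capitals mark a match.
Cdkn1a, upstream start, chr17:29090729-29091028, + strand: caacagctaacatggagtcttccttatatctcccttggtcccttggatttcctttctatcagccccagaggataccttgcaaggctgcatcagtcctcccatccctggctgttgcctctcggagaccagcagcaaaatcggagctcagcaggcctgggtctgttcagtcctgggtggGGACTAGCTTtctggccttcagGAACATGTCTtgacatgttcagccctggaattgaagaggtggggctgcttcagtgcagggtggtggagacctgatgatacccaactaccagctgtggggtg
Ephx1, chr1:181017520-181017819, - strand: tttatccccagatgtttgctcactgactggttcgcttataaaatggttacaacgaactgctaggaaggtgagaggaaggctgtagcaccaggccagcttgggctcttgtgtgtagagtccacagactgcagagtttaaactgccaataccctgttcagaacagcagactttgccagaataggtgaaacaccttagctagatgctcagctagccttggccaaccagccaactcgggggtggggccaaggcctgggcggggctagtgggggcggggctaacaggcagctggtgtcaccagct
Eda2r, chrX:97377160-97377459, - strand: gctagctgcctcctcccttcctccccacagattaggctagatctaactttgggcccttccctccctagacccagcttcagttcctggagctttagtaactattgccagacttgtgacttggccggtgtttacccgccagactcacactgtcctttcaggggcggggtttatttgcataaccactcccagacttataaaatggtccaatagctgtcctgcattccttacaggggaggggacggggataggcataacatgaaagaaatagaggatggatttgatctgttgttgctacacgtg

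The Cdkn1a window of the upstream start held 2 matches, and the window of its second annotated start (chr17:29093519-29093818) held 0. The Ephx1 and Eda2r windows held 0, which says only that these letters are not in these windows. Of the 32 members with a window, 11 had a match in at least 1 window (34.4%), against 2582 of all 27025 genes (9.55%), and by window the shares were 26.1% of 46 and 8.36% of 32851. Many members were chosen as known p53 targets, so this is a description and not a result of these libraries, and their windows also had a higher median GC content (63.3% against 52.7%). By role, 8 of the 15 targets with a window, 2 of the 3 genes of p53 and its inhibitors, and 1 of the 9 BCL2 family genes had a match. A pair of matches with a gap of at most 13 bases was found in 1 member, Cdkn1a, and in 0.0740% of all genes. Only exact matches were counted. The decamer directly after the second Cdkn1a match departs from the consensus in 1 letter and was left out. The counted pair therefore need not be the 2 units of a p53 response element. The matched decamers in the other members follow, each with its gene.
Aen, chr7:78895937-78895946: GGGCTTGTCC
Bax, chr7:45467090-45467099: AGGCAAGCTT
Ccng1, chr11:40755462-40755471: GGGCAAGCCT
Ckap2, chr8:22186013-22186022: AGACATGTCC
Ei24, chr9:36797335-36797344: GGGCATGCCC
Gtse1, chr15:85859955-85859964: GGGCTTGCCT
Mdm2, chr10:117710935-117710944: GAACTTGCCT
Polk, chr13:96519409-96519418: GAACTAGCCT
Rps27l, chr9:66946203-66946212: GGGCTTGCTT
Rps27l, chr9:66946306-66946315: AGACTTGTCC
Trp53, chr11:69580284-69580293: GGACTTGCCC

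Among these listed genes with a match, log2 fold changes ran from -0.08 for Mdm2 to 0.98 for Gtse1. None of them was called by edgeR, by edgeR with the replicate block or by DESeq2. Over all genes the shares were 1.20%, 3.41% and 1.89%, so this is near the background. Cdkn1a, which also had matches, was called with the replicate block and in DESeq2.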

How the data were processed

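The authors deposited whole-number read counts per gene symbol and a normalized signal, which is those counts divided by 1 factor per library. The names of the tables give the features as exons of UCSC known genes. Trizol RNA was made into TruSeq mRNA libraries, per the labels' protocols. Tools named in the submitters' processing notes, with mm10, are featureCounts 1.5.0, STAR 2.3.0e, Trimmomatic 0.32, FastQC 0.11.2 and DESeq2; strand and multi-mapping settings are not given in the sources used here.

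KO was compared with WT in R 4.3.3 with edgeR 4.0.16 (filterByExpr, TMM, glmQLFit and glmQLFTest, no covariate, 4 residual degrees of freedom), and a gene was called at an adjusted p (Benjamini-Hochberg, over all 16592 genes) under 0.05. SE is the log2 fold change divided by the root of the F statistic, and intervals are 95%. Fits were tested on simulated data drawn with the same biological spread for every gene. Such data do not test genes whose spread differs, and no result here rests on them. The members and lists were chosen with earlier results of these data known. Alternatives used DESeq2 1.42.0, limma 3.58.1, other scalings and filters, terms for cerebellar (Gabra6) or Xist transcripts above 5 CPM, loess offsets for exonic length (91.8% of tested genes had a length) and left-out libraries. Every gene of the 37 is given; those with a value in every library follow a fixed list, the calls with and without the block, and the 3 smallest p of each role; Perp and Fas were named in addition after their values were seen.

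The labels give both groups replicates 1 to 3 with no meaning. Same-numbered libraries deviated together from their group means (correlations 0.351, 0.334 and 0.177), above the limit of 0.1. Differently numbered libraries had correlations from -0.381 to 0.1. The numbers were therefore taken as pairs from the data, and the block fit has 2 residual degrees of freedom. Replicates 1 differed in Xist (634 CPM in KO and 0.2499 CPM in WT). Replicates 3 differed in Gabra6 (22.1 CPM in KO and 0 in WT). Libraries of a group differed by at least 6.75 times counting noise (chi-square per degree of freedom), so none was treated as a duplicate. Coordinates and lengths are from GENCODE M21 (mm10). Low counts limit the precision of genes such as Eda2r and Fas, together with the spread between libraries.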

Additional observations from a re-analysis of the deposited data

How the results depend on the processing

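With all libraries, scaling (RLE, upper quartile, total counts), filters and limma left 1 member called, Ephx1. The number of members called was 3 with DESeq2, with the replicate block and with length-adjusted offsets and replicate block, 2 among the libraries without cerebellar transcripts, 0 with the cerebellum term, among the libraries with cerebellar transcripts and with length-adjusted offsets, and 0 without any 1 library (range 0 to 0). The number of genes called, 199, was 314 with DESeq2, 566 with the replicate block, 486 with length-adjusted offsets and replicate block, 129 with the Xist term and 1254 among the libraries without cerebellar transcripts (1 KO library, assumed to vary like the WT libraries), and 100 to 305 without 1 library, lowest without WT replicate 3 and highest without KO replicate 1. The libraries with cerebellar transcripts include 1 WT library, and those without include 1 KO library. The spread within that arm cannot be measured in either subset. The counts of members and genes called there are therefore not used as a test, and no conclusion is drawn from them. The replicate block added calls of Cdkn1a, Eda2r, Sulf2 and Hipk2 and changed no other call of a named gene outside Prmt5. Of 524 values of 25 named genes over 21 alternatives, 30 had the other sign, none of them called. For Bcl2l1 (0.001 with all libraries) the log2 fold change was -0.002 with RLE, with DESeq2 and with the replicate block, -0.003 with limma-voom, -0.008 with limma on the signal, -0.035 with the cerebellum term, -0.193 without cerebellar transcripts, -0.005 with length-adjusted offsets, -0.007 with the block added, and -0.062 to 0.080 without 1 library. For Mdm4 it was 0.044 with the cerebellum term, 0.221 without cerebellar transcripts, 0.036 with length-adjusted offsets, 0.012 with the block added, and -0.200 to 0.237 without 1 library. For Mcl1 it was 0.013 with upper-quartile factors, 0.021 with total counts, 0.022 with the Xist term, and -0.058 to 0.031 without 1 library. Among libraries with cerebellar transcripts it was -0.006 for Bax, -0.066 for Bcl2 and -0.018 for Casp12, and among those without 0.002 for Mdm2. Without 1 library Bax ran from -0.012 to 0.190 and Casp9 from -0.283 to 0.001. The cause of these differences was not tested. Depth limits Eda2r, Gtse1, Tnfrsf10b, Fas and Pmaip1, which had few counts.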
